A study of Caenorhabditis elegans with 2 samples.

Results

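The SOX family genes of Caenorhabditis elegans covered here are sox-2, sox-3, sox-4, sem-2 and egl-13, 5 of the 19973 nuclear protein-coding genes of the annotation. They were taken by name, and every SOX-2 summit inside one of them or within 10 kb of it was collected. The binding data are chromatin immunoprecipitation sequencing (ChIP-seq) of whole late embryos of strain RW12244, aged 3.5 hours after egg bleaching, in 2 biological replicates that form 1 group. The strain carries the allele st12244[sox-2::TY1::EGFP::3xFLAG], a CRISPR insertion at sox-2 on chromosome X, so the gene that supplies the tagged protein is itself one of the 5. The labels describe the antibody as anti-GFP in one field and give only sox-2 in another, and they give 200 to 800 bp as the fragment range after sonication. No second condition and no control were analysed here, the embryos are mixtures of all cell types, and the lists hold no read counts, so the depth is unknown and none of the values below has a test.

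SOX proteins are transcription factors that bind DNA through an HMG box, contact the minor groove and bend the helix. They recognise short sequences around the core CATTGT or CTTTGT, often beside a partner such as a POU protein. In mouse, Sox2 keeps neural progenitors and pluripotent cells undifferentiated and binds enhancers of its own gene. In C. elegans, sox-2 and sox-3 belong to the SoxB group, and sox-2 acts in the development of neurons and in the conversion of a rectal cell into a neuron. The SoxC gene sem-2 is needed for the sex myoblast fate, and the SoxD gene egl-13 for the fate of uterine cells and of oxygen-sensing and carbon dioxide-sensing neurons. No role is given here for sox-4.

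The sequences on which the SOX-2 signal at these genes rests are printed first, from the NCBI sequence of WBcel235, which is the ce11 build of the peak lists. All read 5′ to 3′ on the forward strand. Since sox-2, sox-3 and sox-4 lie on the reverse strand, their transcription runs from right to left. Capitals mark the core CATTGT and the related motif ATTGTT, or their reverse complements, which overlap at the sox-2 promoter. The other core, CTTTGT, is in none of these windows. The first 3 are the peaks near sox-2 that passed the authors' threshold, for the promoter peak only the part upstream of the first exon. The others reach 50 bp to each side of the strongest ranked summits of sox-3, sox-4 and egl-13 and of the summit in the sox-2 intron, for comparison.
sox-2 promoter peak, chrX:7463737-7463981: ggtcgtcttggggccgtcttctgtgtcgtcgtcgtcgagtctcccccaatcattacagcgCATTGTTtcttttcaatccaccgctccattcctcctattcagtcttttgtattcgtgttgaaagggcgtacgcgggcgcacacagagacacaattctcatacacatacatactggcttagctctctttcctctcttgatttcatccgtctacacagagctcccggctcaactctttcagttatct
sox-2 downstream peak, chrX:7455963-7456246: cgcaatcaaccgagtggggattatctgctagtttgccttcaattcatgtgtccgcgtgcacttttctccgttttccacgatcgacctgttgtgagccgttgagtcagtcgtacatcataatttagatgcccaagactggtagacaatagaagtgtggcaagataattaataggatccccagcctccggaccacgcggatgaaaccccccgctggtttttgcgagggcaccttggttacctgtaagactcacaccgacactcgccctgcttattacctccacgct
peak upstream of sox-2 inside coh-1, chrX:7469918-7470201: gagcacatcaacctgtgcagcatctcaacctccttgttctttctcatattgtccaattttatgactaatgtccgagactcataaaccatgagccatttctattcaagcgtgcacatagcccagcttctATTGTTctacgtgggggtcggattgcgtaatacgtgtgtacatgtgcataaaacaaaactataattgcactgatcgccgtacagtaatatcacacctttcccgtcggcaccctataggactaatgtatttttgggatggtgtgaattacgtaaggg
sox-2 first intron, chrX:7461511-7461611: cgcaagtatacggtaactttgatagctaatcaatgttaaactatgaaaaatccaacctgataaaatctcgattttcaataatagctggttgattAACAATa
sox-3 downstream summit, chrX:14688844-14688944: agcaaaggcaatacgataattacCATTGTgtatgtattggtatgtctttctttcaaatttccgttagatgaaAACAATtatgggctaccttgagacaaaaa
sox-4 first intron, chrX:3507180-3507280: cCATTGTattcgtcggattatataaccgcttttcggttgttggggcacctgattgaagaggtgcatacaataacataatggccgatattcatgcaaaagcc
egl-13 promoter, chrX:5662974-5663074: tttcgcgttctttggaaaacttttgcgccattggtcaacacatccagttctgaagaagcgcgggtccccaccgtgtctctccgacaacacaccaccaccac

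Of the 5 genes, only sox-2 had a summit of the thresholded list within 10 kb, and it had 3. Among all genes 13.5% had such a summit, and 19.9% of genes on chromosome X did, so 1 of 5 is near the background. The share of genes was 13.3% with the conservative list, 11.4% and 11.5% with the lists of replicates 1 and 2, and 4.83% within 2 kb, and sox-2 was the 1 SOX gene called in each. It was also the 1 with a thresholded summit at its promoter, as were 1.96% of all genes, and no SOX gene had one inside, as 1.04% did. A ranked summit of any IDR was found near all 5, as near 77.5% of genes, and one with an IDR of at most 5% near sox-2 and sox-3, as near 18.8%. The thresholded list (677 peaks) and a conservative one (651) were made by the authors from both replicates. The ranked list behind the first holds 8504 peaks with a signal, the authors' own value whose scale is not given, and an irreproducible discovery rate (IDR), low where a peak keeps its rank when the calling is repeated. Every thresholded peak has an IDR of at most 1% there. The 5 windows held 26 ranked summits, of which 3 were thresholded (11.5%). Of all nuclear ranked summits 7.78% were, and of those on X 10.1%.

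The sox-2 window was the densest of the 5. It held 12 ranked summits against 6 for egl-13, 4 for sox-4, 3 for sox-3 and 1 for sem-2, while the median gene window held 2 with quartiles of 1 and 3. Per 10 kb of window this was 4.71 summits at sox-2, 1.98 at egl-13, 1.69 at sox-4, 1.35 at sox-3 and 0.283 at sem-2, beside a median of 0.497 over all genes and 0.861 over genes on X. As many ranked summits as at sox-2, or more, were found at 16 genes (0.0801%), sox-2 included, and as many thresholded ones at 41 (0.205%). Neighbouring genes share windows, so these genes are not independent of each other.

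**Figure D1:**
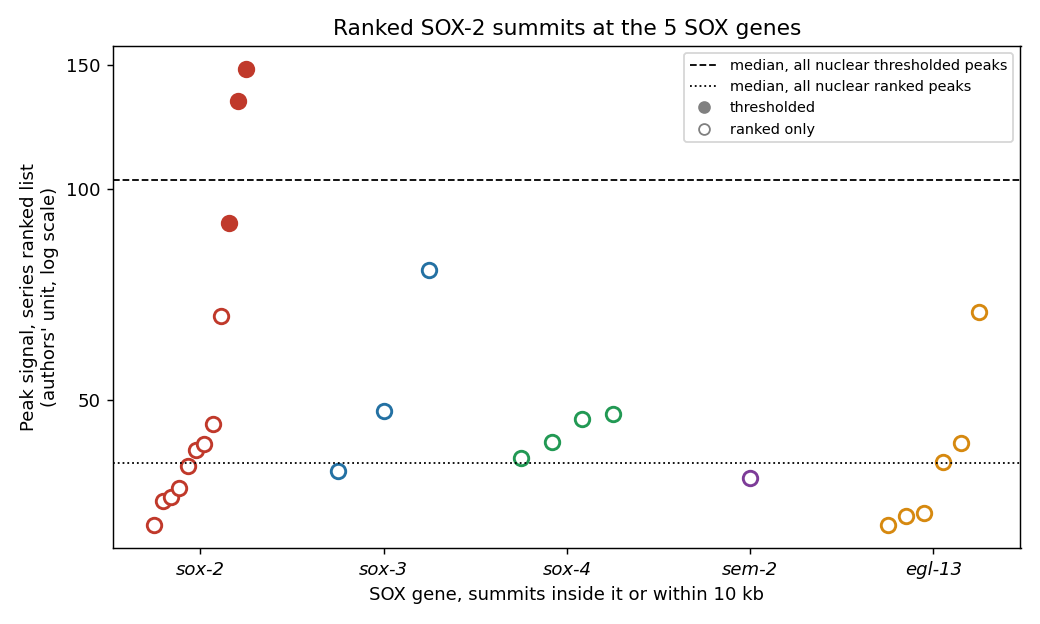
Signal of each ranked SOX-2 summit (series ranked list, authors' unit, log axis) by SOX gene, with filled points for thresholded summits and lines at the median of all nuclear ranked (40.7) and thresholded (103) peaks. The 3 filled points are all in the sox-2 window, the highest in an intron of coh-1, and 20 of the 26 points lie below 50.

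The 3 strongest signals were all in the sox-2 window. The thresholded summits there had signals of 148, in an intron of the neighbour coh-1, 133, at the sox-2 promoter, and 89.3. The median of nuclear thresholded peaks was 103. The 23 ranked summits that were not thresholded ran from 33.2 to 76.7, and the median of all 26 was 42.9, close to the 40.7 of all nuclear ranked peaks. Between the lowest thresholded signal and the highest of the others, at sox-3, lay a gap from 89.3 down to 76.7.

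The gene sox-2 (WBGene00004949, X:7458280-7463736, reverse strand) has 5 annotated transcripts with 4 different 5′ ends, of which the most upstream, at 7463736, lies before a long first intron. The promoter peak, X:7463698-7463981, had its summit at 7463840, 104 bp upstream of that 5′ end. Its signal was 67.2 in replicate 1 and 62.4 in replicate 2, a mean of 64.8 ± 3.42 (SD, n = 2), and 133 in the list from both. It ranked 258 of the 8504 series peaks, 261 in replicate 1 and 293 in replicate 2. Both replicates had it past their own threshold, and its IDR was 0.00899% in the first series ranked list and 0.0107% in the other. No SOX gene had another summit that passed in both replicates.

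The sequence CATTGT stands in the promoter peak at X:7463797-7463802, 41 bp from the summit, and a T follows it, so ATTGTT matches as well. CATTGT lay within 50 bp of 15.0% of the 660 nuclear thresholded summits and of 10.04% of the 8486 nuclear ranked ones. The same summit lies inside 2 annotated non-coding RNA genes on opposite strands, K08A8.23 and K08A8.26. By replicate signals, 287 thresholded promoter peaks were compared, this one included. Most like it were those of vps-39 (65.6 and 62.1 in replicates 1 and 2), of rps-24, which codes for a protein of the small ribosomal subunit (66.1 and 60.1), and of smvt-1 (68.8 and 59.6). Their distances from it in log2 signal were 0.0352, 0.0581 and 0.0728, and none of the 3 held the core motif within 50 bp of the summit. The summit at smvt-1 lies within 500 bp of a tRNA gene, the one at sox-2 does not.

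The peak farther upstream was the strongest near any SOX gene but differed between the replicates. It lies at X:7469918-7470201 with its summit at 7470060, 6324 bp upstream of sox-2 and inside an intron of the neighbour coh-1 (X:7465193-7475018), which codes for a cohesin subunit. The nearest annotated 5′ end is an internal one of coh-1 at 7469232, 828 bp away, so by the promoter rule used here (1000 bp upstream to 200 bp downstream) this is a coh-1 promoter peak. Its signal was 106.2 in replicate 1, where it passed, and 44.4 in replicate 2, where its IDR of 6.09% did not, a mean of 75.3 ± 43.7 (SD, n = 2). From both replicates it had a signal of 148, rank 199 and an IDR of 0.00466%, and it was in the conservative list. ATTGTT stands 12 bp from the summit, and neither CATTGT nor CTTTGT was within 50 bp. The summit lies in the non-coding gene K08A8.30, while that of replicate 2, at 7470086, lies outside it.

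Downstream of sox-2 a thresholded peak lay 2175 bp past the 3′ end of the gene, at X:7455963-7456246 with its summit at 7456105. Replicate 1 gave it a signal of 51.6 and passed it with an IDR of 0.136%. In replicate 2 the nearest summit, 94 bp away at 7456199, had 21.1 and an IDR of 94.3%, and a second summit at 7455996 had 31.1. The mean with the nearest summit was 36.4 ± 21.6 (SD, n = 2). The list from both gave 89.3, rank 581 and an IDR of 0.212%, while the ranked list behind the conservative set gave the same peak an IDR of 63.7%. Of the 659 nuclear thresholded peaks that are in that other list, 104 stood above 1% and 8 had an IDR at least this high. None of the motifs searched was in this peak.

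**Figure D2:**
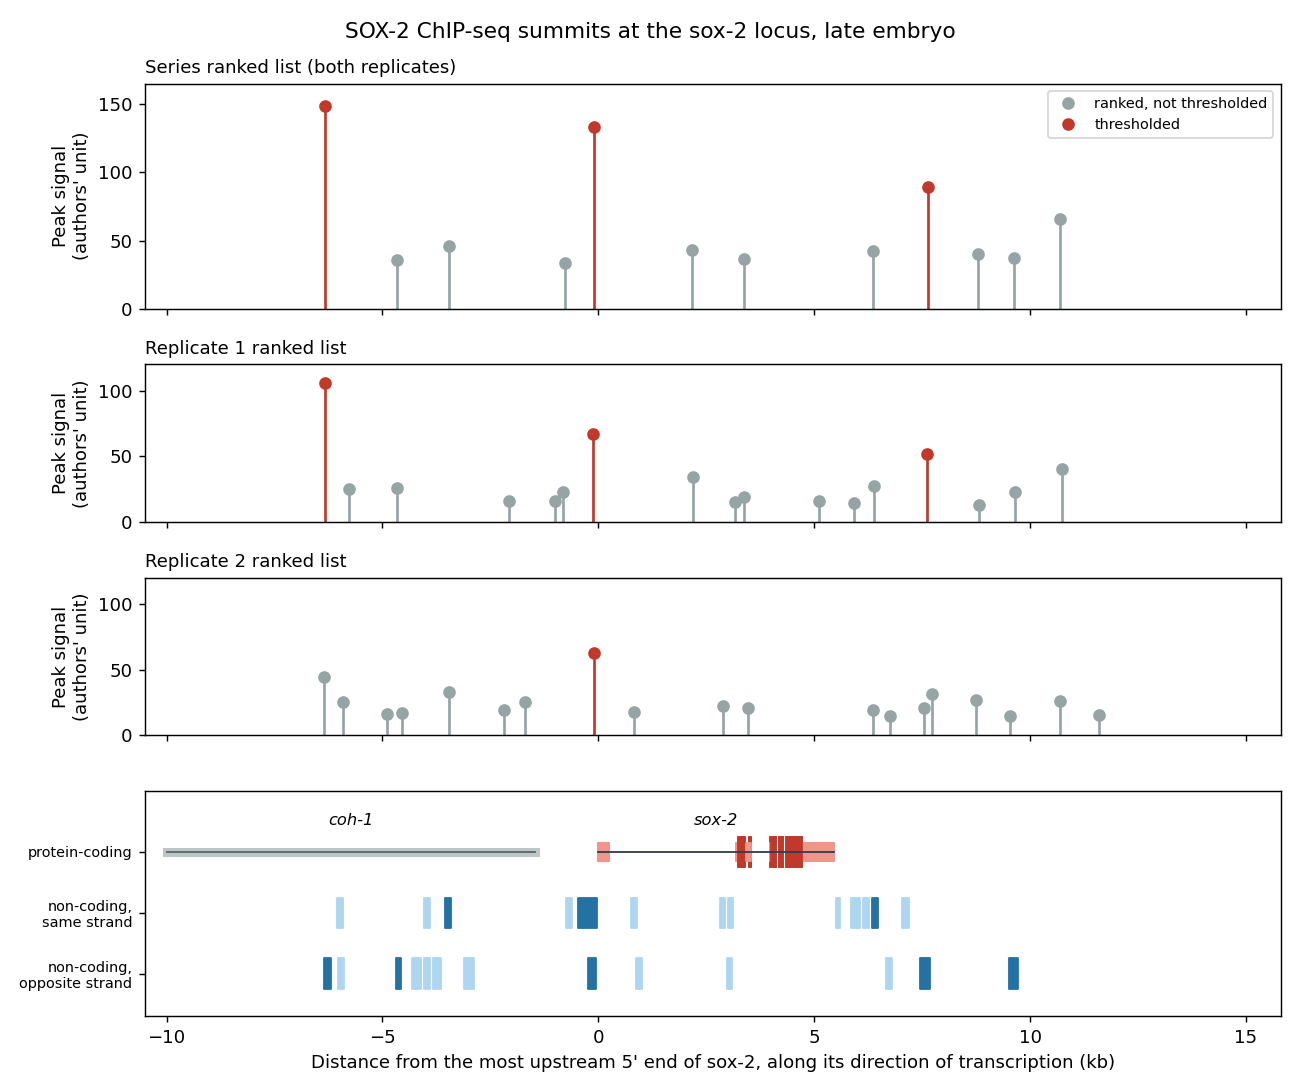
Ranked SOX-2 summits within 10 kb of sox-2 by distance from its most upstream 5′ end (kb, along transcription), with signal in the authors' unit for both replicates together and each alone, above the annotated protein-coding and non-coding genes (dark blue where a ranked summit of the series lies in one). Red marks thresholded summits, and in sox-2 dark red marks coding and pale red untranslated exons. The promoter summit is red in all 3 lists, and the outer 2 are red in replicate 1 and grey in replicate 2.

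The promoter peak of sox-2 was even between the replicates and the 2 outer peaks were higher in replicate 1. Over 639 nuclear thresholded peaks with a ranked summit within 100 bp in each replicate, the median ratio of replicate 1 to replicate 2 was 1.06, and the log2 ratio ran from -0.67 at the 5th to 0.90 at the 95th percentile. The downstream peak had a ratio of 2.45 (percentile 98.4) and the peak in coh-1 one of 2.39 (percentile 98.1), with 9 and 11 peaks above them. The value of the downstream peak depends on the pairing, since replicate 2 has 2 summits there and the nearer is the weaker. With the stronger one, 31.1, taken by an alternative chosen after seeing the data (the strongest replicate summit inside the series peak), its ratio was 1.66, percentile 91.3 of 644 peaks and below the 95th. The peak in coh-1 stayed at 2.39 and percentile 98.1. The promoter peak, at 1.08, stood at percentile 51.2. Each replicate's list may have its own scale, which the median ratio takes up. What moved the 2 outer peaks toward replicate 1 was not tested.

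**Figure D3:**
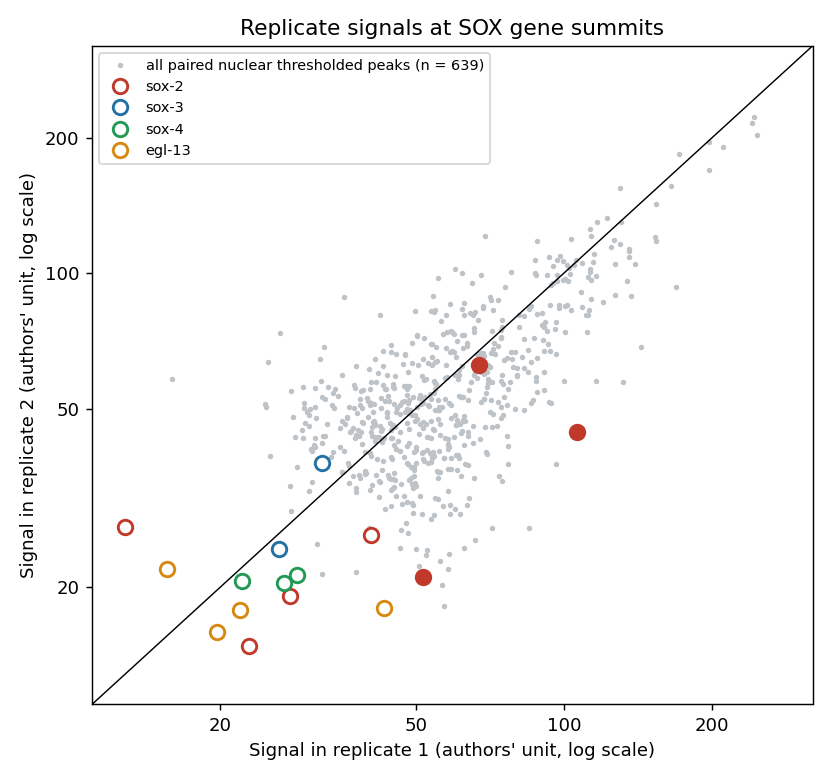
Signal in replicate 1 against replicate 2 (authors' units, log axes) for ranked SOX gene summits found in both replicates, filled where thresholded, over 639 paired nuclear thresholded peaks in grey and the line of equal signal. The sox-2 promoter lies on the line, and the other 2 filled points lie below it, at ratios of 2.45 and 2.39 with the nearest summits.

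Within the sox-2 gene no summit was thresholded. The first intron had a ranked summit at 7461561 with a signal of 43.3 and an IDR of 33.9%, and of 55.0% in the other list. Replicate 1 gave it 34.4, and replicate 2 had no ranked summit within 100 bp. A summit in a coding exon at 7460368 had 36.4, with 19.3 in replicate 1. It lies 57 bp upstream of an internal 5′ end at 7460311 and so at a promoter by the rule above. Replicate 2 had a summit of 21.1 inside the same peak, just past the 100 bp used for pairing. Upstream of another internal 5′ end, at 7460548, replicate 1 had a summit of 15.2 at 24 bp, with CATTGT within 50 bp. Replicate 2 had one of 22.3 at 297 bp. Both lay at a promoter by the same rule, and neither was in the series ranked lists. Outside the gene, a summit at 7464497, 761 bp upstream of the most upstream 5′ end and so also at a promoter, had 33.2. The first ranked list gave it an IDR of 69.2% and the other did not hold it. Replicate 1 gave it 23.2, and replicate 2 had no ranked summit within 100 bp. A summit 5235 bp past the 3′ end at 7453045 had 65.9, with 40.6 in replicate 1 and 26.1 in replicate 2. Its IDR was 3.59%, 8.52% in the other list, and ATTGTT was within 50 bp.

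Of the 5 genes, sox-2 had the most non-coding RNA genes in its window. The annotation has 26 of them in its window, 8 downstream, 5 inside and 13 upstream, and together they cover 14.8% of it. They held 7 of the 12 ranked summits and all 3 thresholded ones. Over the genome, 17.9% of nuclear thresholded summits and 27% of those on X lay in such a gene, against 6.02% and 10.2% of ranked summits. The other windows had fewer, 14 at egl-13, 8 at sox-3, 3 at sem-2 and none at sox-4.

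Of the 8 non-coding genes downstream of sox-2, 3 held a ranked summit of the series. The share of all annotated non-coding genes that hold one is not given here, so the counts in this paragraph have no background. K08A8.22 held the thresholded one described above. Of the replicate 2 summits in that peak, the weaker (21.1) lay inside K08A8.22 and the stronger (31.1) outside it. K08A8.20, on the strand of sox-2, had a summit 909 bp past the end of sox-2 with a signal of 42.5, with 27.7 and 19.1 in replicates 1 and 2. K08A8.16, on the opposite strand and farthest from sox-2, had 37.5, with 22.9 and 14.8. K08A8.31 had a summit in replicate 1 alone (14.8) and K08A8.28 in replicate 2 alone (14.9). No list had a summit in K08A8.6, K08A8.21 or K08A8.24. The 5 genes inside sox-2 held none in the series lists, and 2 of them, K08A8.14 (22.3) and K08A8.18 (17.7), had one in replicate 2 alone.

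The other SoxB gene, sox-3 (WBGene00004950, X:14690816-14693005, reverse strand), had the strongest summit short of the threshold. It lies at 14688894, 1922 bp past the 3′ end of sox-3, between this gene and the calsequestrin gene csq-1. Its signal was 32.3 in replicate 1 and 37.8 in replicate 2, a mean of 35.1 ± 3.91 (SD, n = 2), and 76.7 from both, at rank 789. The IDR was 1.67% and 1.94% in the 2 series ranked lists, above the 1% that no thresholded peak exceeds in the first. Of the 771 nuclear ranked peaks with at least this signal 176 were not thresholded, and 65 thresholded peaks had less. It holds CATTGT at 25 bp and ATTGTT at 24 bp from the summit, on either side. A summit at 14691283 lay in the 3′ untranslated region of sox-3 in transcript F40E10.2.2 and in an intron in F40E10.2.1. It had 48.3, with 26.3 and 24.3 in the replicates, an IDR of 29.7% and CATTGT as well. Upstream, a summit 1839 bp from the 5′ end in the non-coding gene F40E10.9 had 39.6, with 36.4 in replicate 1 and none within 100 bp in replicate 2. No ranked summit of the series lay at the sox-3 promoter.

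At sox-4 (WBGene00015716, X:3505270-3509006, reverse strand) the 4 ranked summits were of nearly equal signal. The first intron had 47.8 at 3507230, 805 bp upstream of an internal 5′ end at 3506425 and so at a promoter by the rule above, with 27 in replicate 1 and 20.4 in replicate 2, an IDR of 38.8% and CATTGT 47 bp away. A summit 85 bp past the 3′ end, within the untranslated region of the neighbour C12D12.1, had 47.0, with 28.7 and 21.3. One 3560 bp upstream had 43.7, with 22.1 and 20.6, and CTTTGT nearby. The last, in an intron of C12D12.1, had 41.4 and was ranked in replicate 2 alone (31.2). None lay at the most upstream 5′ end of sox-4, and the window holds no annotated non-coding RNA gene.

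For egl-13 (WBGene00001182, X:5663837-5674067, forward strand), which has 13 transcripts and 11 different 5′ ends, the strongest summit lay at the promoter. At 5663024, 813 bp upstream of the gene, it had a signal of 43.1 in replicate 1 and 18 in replicate 2, a mean of 30.6 ± 17.7 (SD, n = 2). From both replicates it had 66.7 at rank 1072, and its IDR was 11.2% in the first ranked list and 69.4% in the other. It lies in the non-coding gene T22B7.15, and none of the motifs searched was within 50 bp of it. The next summits, in a coding exon of set-19 (43.5) and 679 bp past the 3′ end of egl-13 (40.8), stood near the median of all ranked peaks. The 3 weakest, between 33.2 and 34.6, lay upstream. The introns of egl-13 had no summit in the first series ranked list and 1 in the other, at 5667000 with a signal of 40.8. The replicates' own longer lists had 3 summits inside the gene in replicate 1 and 6 in replicate 2, none thresholded. The strongest were 17.7 at 5672074 in replicate 1 and 17.4 at 5665633 in replicate 2. An intron had 14.1 at 5670613 in replicate 1 and 17.3 at 5670632 in replicate 2. All of these named replicate summits lay at internal promoters by the rule above.

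Least signal was found at sem-2 (WBGene00004771, I:5204530-5219815, reverse strand), the longest of the 5 genes and the only one not on X. Its single ranked summit lay in the 3′ untranslated region at 5204994, with a signal of 38.7, an IDR of 84.8% and a replicate 1 signal of 25.4. Replicate 2 had a summit of 13.6 in the same peak, 131 bp from the series summit. In 77.2% of genes the density of ranked summits was as high or higher. The replicates' own lists, which are longer, had 9 summits each in its window. Apart from the summit above, the strongest of these inside the gene were in introns, at 20.1 in replicate 1 and 27 in replicate 2. The latter lies 729 bp upstream of an internal 5′ end, at a promoter by the rule above. Upstream of another internal 5′ end, also by that rule at a promoter, replicate 1 had a summit of 18.9 and replicate 2 one of 15.5. At 967 bp upstream of the most upstream 5′ end, replicate 1 alone had one of 21.1. None was thresholded in either replicate.

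Across the windows, replicate 1 ranked 50 summits and replicate 2 ranked 53, and 18 pairs lay within 100 bp of each other. These were 36% of the first and 34.0% of the second, beside 26.7% and 25.9% over all nuclear summits. By gene 6 pairs were at sox-2, 5 at egl-13, 3 at sox-3, 2 at sox-4 and 2 at sem-2. The series ranked lists held 26 and 24 summits in the windows and shared 22.

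**Figure D4:**
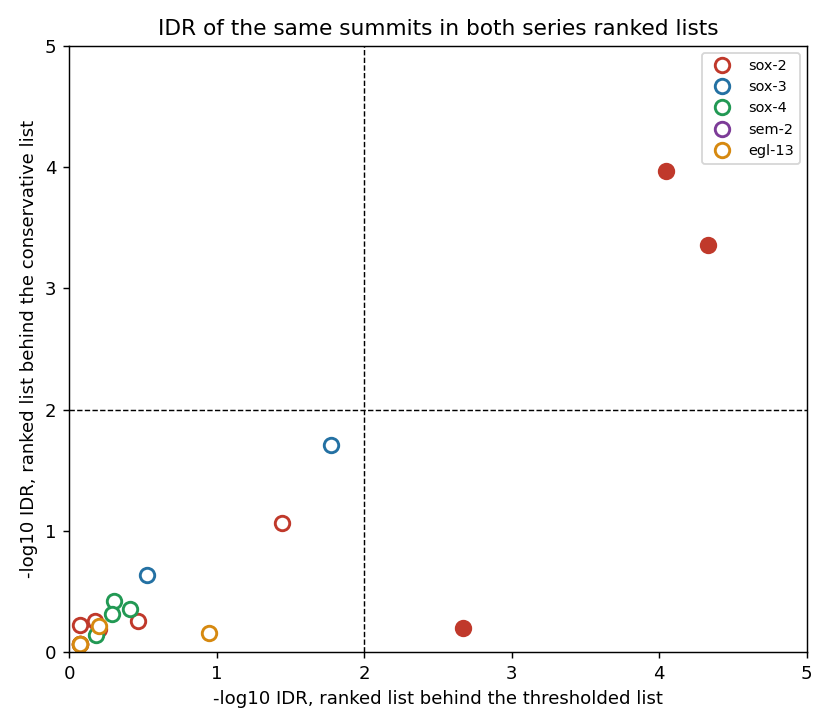
IDR (as −log10, so higher is more reproducible) of SOX gene summits found in both series ranked lists, filled where thresholded, with dashed lines at an IDR of 1%. The sox-2 promoter and the peak in coh-1 lie past both lines, and the sox-2 downstream peak, at 0.212% and 63.7%, lies past one. The sem-2 summit lies under egl-13 points at the lower left.

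The core motif, CATTGT or CTTTGT on either strand within 50 bp, lay at 6 of the 26 ranked summits (23.1%, exact 95% interval 8.97 to 43.6, counting error only). It lay at 20.2% of all nuclear thresholded and 16.6% of ranked summits. In equally wide flanks, placed 300 bp left and right of each summit, it was at 5.77% for the SOX genes and 10.2% for all ranked summits. By gene, 2 of 3 ranked summits held it at sox-3, 2 of 4 at sox-4, 1 of 6 at egl-13, 1 of 12 at sox-2 and 0 of 1 at sem-2. The share at sox-2 depends on the window: within 100 bp 7 of its 12 summits held the core motif (58.3%, beside 28.6% of all nuclear ranked summits), and of its 3 thresholded summits 1 held it at either width. ATTGTT alone lay at 8 of 26 (30.8%), beside 16.3% of all ranked summits, and either POU octamer, ATGCAAAT or the variant ATGCTAAT, at 0 of 26, beside 1.34%. These shares rest on few summits and describe letters in a window.

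Other genes with an HMG box carried thresholded summits within 10 kb at 4 of 8, beside 13.5% of all genes. The strongest summit of each is given, and the highest was in an intron of pop-1, the TCF factor of Wnt signalling, with 87.2 and 100.01 in replicates 1 and 2. A summit 2371 bp upstream of hmg-1.1, a chromatin HMG box gene, had 73.5 and 69.0. One 157 bp upstream of swsn-3, which codes for a SWI/SNF subunit, and in an intron of cox-6B had 65.5 and 45.6. Both of these held the core motif. In an intron of pbrm-1, a further SWI/SNF subunit, replicate 1 had 73.7 and passed, and replicate 2 had 35.5 and did not. Of 7 genes listed as partners or possible targets of sox-2 from other work, 2 had a thresholded summit in the window. The one near the POU gene unc-86 had 45.3 and 45.5 and lay just upstream of C30A5.16. Near egl-27, a homologue of a nucleosome remodelling subunit, there were 5, of which 3 lay inside the gene, 1 of them at an egl-27 promoter (42.5 and 44.5). The strongest of the 5 (80.2 and 59.1) lay outside, in an intron of C04A2.15 beside a tRNA gene. The POU gene ceh-6 had 4 ranked summits, none thresholded and the strongest at 40.8, beside a median of 2 per gene window. Of the same list, ceh-18 and ceh-36 had no ranked summit.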

How the data were processed

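The deposited files are peak lists on ce11, per the labels. Per the text list deposited with them, each replicate has a ranked and a thresholded list, and the series has 2 ranked, 1 thresholded and 1 conservative list from both replicates, all made with a control input. No source used here names the aligner or the peak caller, or gives the read depth. Each peak's signal is the authors' own value and was used to describe and rank peaks. The deposited ranked lists hold the −log10 IDR, with a highest value of 5, and 8 signal columns with no sample name in the 2 series lists were not used. Tested on the files, all 677 thresholded peaks are peaks of the first ranked list with an IDR of at most 0.01, and all 651 conservative ones of the second. The 2 ranked lists hold 773 and 743 peaks with such an IDR, more than the shorter lists, and the reason was not examined.

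Summits were placed on the Ensembl release 115 annotation and the NCBI WBcel235 sequence with Python 3.11.15, pandas 2.3.3 and numpy 2.4.6 (scipy 1.17.1 for exact intervals). Coordinates are 1-based. A gene window reached 10 kb past both ends. Replicate summits were paired within 100 bp, each with the nearest, or, as an alternative added after seeing the data, as the strongest inside the series peak. The motif search covered 50 bp to each side of a summit, on either strand, and flanks centred 300 bp away. Widths of 100 and 142 bp to each side were also searched. Scripts were tested on simulated lists. The labels give 1 group, so no groups were compared.

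The members, gene lists, motifs and alternatives were chosen with earlier results of these data known. Named are the 5 SOX genes with every thresholded and the 3 strongest ranked summits of each, annotated genes at thresholded summits, the 3 promoter peaks nearest in log2 replicate signals, and members of the HMG box and partner lists with a thresholded summit. Other summits and genes were named after their values were seen, among them ceh-6, ceh-18, ceh-36, csq-1, C12D12.1, set-19, the non-coding genes and the weaker summits.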

Additional observations from a re-analysis of the deposited data

How the results depend on the processing

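No paired analysis was possible because the series has 1 group. Leaving out a replicate means using the other replicate's own lists, which are longer and on their own scale. The count of thresholded summits near SOX genes, 3, then ranged from 1 to 3 (3 in replicate 1 alone, the promoter summit alone in replicate 2), the count of ranked summits, 26, from 50 to 53, and the signal of the sox-2 promoter peak, 133, from 62.4 to 67.2. Within 2000 bp of the genes in place of 10 kb there was 1 thresholded summit, the sox-2 promoter's, and 13 ranked ones, and within 5000 bp 2 and 21. Taking ranked summits with an IDR of at most 5% gave 5 summits at 2 genes, sox-2 and sox-3, where 18.8% of all genes had one. The conservative list gave 2 and the other ranked list 24. With ATTGTT in place of the core motif 2 of the 3 thresholded summits held it, and within 100 bp of the summit the share of ranked summits with the core motif was 50%, beside 28.6% of all nuclear ranked summits. The share with CATTGT alone, with ATTGTT and in the other ranked list stayed between 15.4% and 30.8%. With the strongest replicate summit inside the peak, an alternative chosen after seeing the data, the replicate ratio of the downstream sox-2 peak moved from 2.45 to 1.66 and those of the other 2 were the same. In each list run, sox-2 was the SOX gene with a thresholded summit. The depth is unknown and no control was analysed, and with 2 replicates the SD of a signal is itself uncertain.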
